A study of Homo sapiens with 12 samples.

Results

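The mRNA levels of 9 genes of mucin-type O-glycosylation were followed by RNAseq through inhibition of HER2 and depletion of FOXA1 in SKBR-3 cells: the mucins MUC1, MUC15 and MUC20 and the enzymes GALNT6, GALNT7, C1GALT1, B3GNT7, ST3GAL1 and ST6GALNAC2. They were chosen by symbol, with earlier results of these data known. All 9 of 9 were found among the 20531 genes of the deposited tables and were tested in every comparison. SKBR-3 is an established HER2-amplified human breast carcinoma line, grown here in RPMI with 10% FBS. All 12 samples were transfected, with a non-targeting (NT) control pool or a FOXA1 siRNA pool, and then given DMSO or 300 nM lapatinib, a HER2 and EGFR kinase inhibitor, for 24 h. This gave 4 groups of 3 replicates: NT siRNA with DMSO, NT siRNA with lapatinib, FOXA1 siRNA with DMSO, and FOXA1 siRNA with lapatinib. The siRNA time is 48 h in the labels of all samples, whereas the paper's methods give 24 h before the drug. All samples come from 1 cell line without its stromal neighbours, and nothing in the labels says that replicates were separate cultures, so p-values measure the spread between these samples, which may be technical.

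Mucins are heavily O-glycosylated proteins of the epithelial surface, and MUC1 is the member best known for its altered, shortened glycans in breast carcinoma. Their O-glycans are built in the Golgi in steps: a polypeptide GalNAc transferase (GALNT) attaches the first sugar to serine or threonine, the core 1 synthase C1GALT1 adds galactose to it, and N-acetylglucosaminyltransferases of the B3GNT family help to extend chains into poly-N-acetyllactosamine. Sialyltransferases end the chains: ST3GAL1 puts sialic acid on the galactose of core 1, and ST6GALNAC2 puts it on the first GalNAc. FOXA1 is a forkhead transcription factor of luminal epithelium.

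The libraries held 25749578 to 32271850 expected counts in ranges that overlapped between the 4 groups. FOXA1 itself was the check of the siRNA. Its normalized counts (counts scaled to the average depth of the 12 libraries) were 8523 ± 196 (SD, n = 3) in NT siRNA cells with DMSO and 1369 ± 203 in FOXA1 siRNA cells with DMSO. In lapatinib they were 12593 ± 544 and 1969.7 ± 374, and no FOXA1 siRNA sample reached any NT siRNA sample. Luminal markers were high in every sample (KRT8 2932 to 4216 TPM, EPCAM 176 to 300.4 TPM), except CDH1, at 2 to 19 counts. The summed TPM of the 3 fibroblast, 3 basal, 2 endothelial and 2 leukocyte markers reached at most 5.78, 2.1, 0.7 and 0.63, with COL1A1 at 2.74 to 5.58 TPM making up most of the fibroblast sum and COL1A2 at or under 0.37 TPM. The basal sum was 0.05 to 0.47 TPM with NT siRNA and 0.83 to 2.1 TPM with FOXA1 siRNA, and its part in the siRNA results was not tested.

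The promoters of MUC1 and B3GNT7 are shown because these are the members with promoter entries that moved by more than 2-fold. Each is the 250 bases before the transcription start, 5′ to 3′ on the gene's strand, from RefSeq on GRCh38.p14. Capitals mark every match, on either strand, to the GC box or the TATA box, both spelt out below the sequences.
MUC1 (chr1:155192916-155193165, minus strand): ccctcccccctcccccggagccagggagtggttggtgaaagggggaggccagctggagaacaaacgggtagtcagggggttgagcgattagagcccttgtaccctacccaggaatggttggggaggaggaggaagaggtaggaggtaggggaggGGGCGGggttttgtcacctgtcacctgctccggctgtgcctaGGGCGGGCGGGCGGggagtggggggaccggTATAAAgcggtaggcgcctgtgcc
B3GNT7 (chr2:231395460-231395709, plus strand): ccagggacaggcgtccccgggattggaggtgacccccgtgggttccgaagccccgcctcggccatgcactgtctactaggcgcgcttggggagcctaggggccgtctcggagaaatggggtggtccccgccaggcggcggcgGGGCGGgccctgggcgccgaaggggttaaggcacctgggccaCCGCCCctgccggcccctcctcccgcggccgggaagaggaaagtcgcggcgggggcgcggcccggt

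The GC box was searched as GGGCGG and the TATA box as TATAAA. The MUC1 window held 4 GC boxes, 3 of which overlap one another, and TATAAA 24 bases before the start. B3GNT7 held 2 GC boxes, 108 and 66 bases before the start, and no TATAAA. The windows of GALNT7 and C1GALT1, not shown, also held GC boxes and no TATAAA. Their GC boxes lay 101 bases before the start for GALNT7 and 118, 65, 58 and 44 bases before it for C1GALT1. Of 27305 RefSeq promoters of this length, 42.3% held a GC box and 11.1% TATAAA. A forkhead motif (TGTTNAC), a STAT motif (TTCNNNGAA) and an AP-1 motif (TGANTCA) were also searched on both strands, and none of them matched in the windows of MUC1, B3GNT7, GALNT7 or C1GALT1, the 4 members with an entry. The C1GALT1 entry (chr7:7182294-7182543) belongs to a start inside the annotated gene, not to the outermost start. These motifs were held by 8.04%, 6.78% and 6.60% of all promoters. The GC content was 66.0% for MUC1 and 75.6% for B3GNT7, against a median of 58.0%. The GC box and TATA box were added to the search after the first 3 motifs had given no match.

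Per unit of transcript length (TPM), MUC1 was the highest of the 9 in every group, at 120.6 ± 25.6, 515.9 ± 39.2, 210.6 ± 17.7 and 824.7 ± 164 TPM in the order of groups given above (n = 3 each). ST6GALNAC2 was the lowest in every group, at 1.31 ± 0.29, 4.53 ± 0.78, 0.307 ± 0.18 and 0.387 ± 0.015 TPM. With NT siRNA and DMSO the order was MUC1, GALNT6, GALNT7, C1GALT1, ST3GAL1, MUC20, B3GNT7, MUC15 and ST6GALNAC2, and only the neighbours GALNT6 (76.8 ± 4.7 TPM) and GALNT7 (71.1 ± 4.3 TPM) overlapped. With FOXA1 siRNA and lapatinib, GALNT7 stood second at 119.4 ± 1.9 TPM, MUC15 had risen above MUC20 to 57.0 ± 5.6 TPM, and B3GNT7 was the second lowest at 4.51 ± 0.66 TPM. In that group GALNT6 overlapped C1GALT1, and MUC15 overlapped MUC20. Across the 4 group means of normalized counts, MUC15 spanned 22.5-fold, B3GNT7 20.9-fold, ST6GALNAC2 14.9-fold, MUC1 6.95-fold and MUC20 5.25-fold, while the other 4 enzymes spanned 1.51-fold to 1.88-fold.

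**Figure D1:**
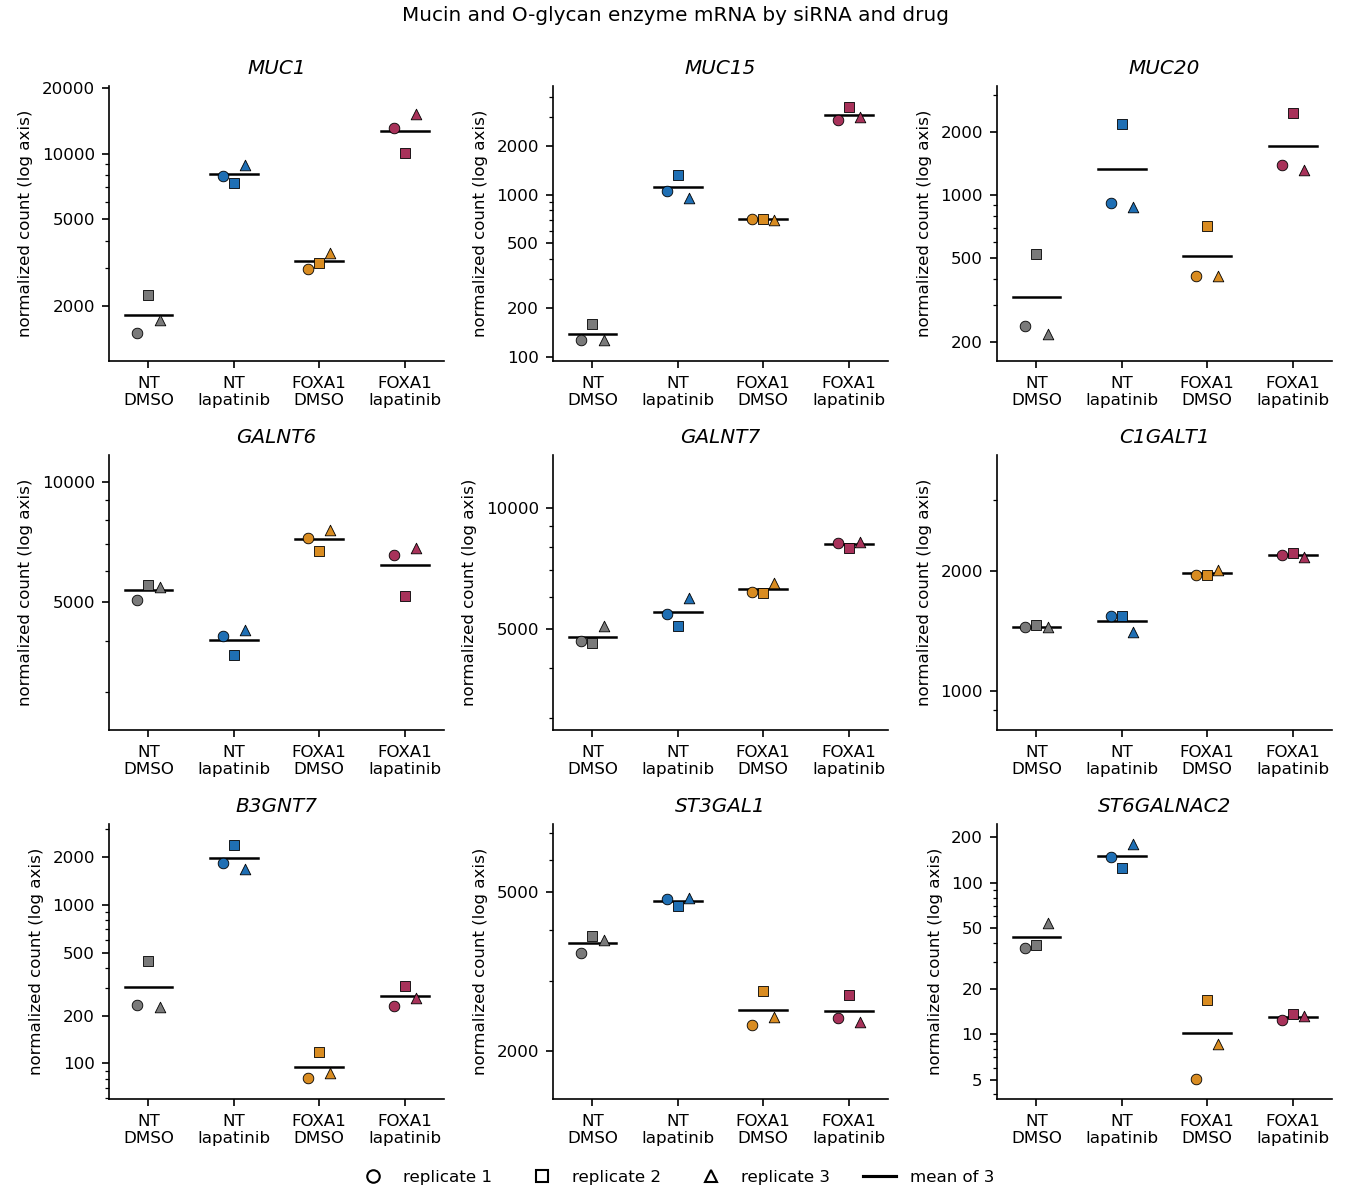
Normalized counts (log axis) of the 9 genes in each of the 12 samples, by siRNA and drug; symbols give the replicate number and bars the mean of 3. The 3 mucins were highest with FOXA1 siRNA and lapatinib, whereas B3GNT7, ST3GAL1 and ST6GALNAC2 were highest with NT siRNA and lapatinib.

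The first question was how the mucins responded to lapatinib. MUC1 (gene ID 4582, chr1:155185824-155192915 on the minus strand of GRCh38.p14, as are all positions here) had normalized counts of 1518, 2245 and 1737 with NT siRNA and DMSO (replicates 1, 2 and 3) and 7863, 7368 and 8831 in lapatinib. FOXA1 siRNA cells had 2949, 3171 and 3521 in DMSO and 13111, 10006 and 15086 in lapatinib. The 4 groups did not overlap, and every FOXA1 siRNA sample was above every NT siRNA sample of the same drug. The response to lapatinib was a log2 fold change of 2.16 (SE 0.14, 4.48-fold, adjusted p = 7.54e-06) with NT siRNA and 2.002 (SE 0.14, 4.01-fold, adjusted p = 1.42e-05) with FOXA1 siRNA. Adjusted p-values come from the quasi-likelihood test of edgeR, adjusted by Benjamini-Hochberg over all genes tested. In bulk samples, fewer cells that express a gene and less RNA per cell cannot be told apart. FOXA1 siRNA raised MUC1 by 0.82 (SE 0.14, adjusted p = 0.00210) on the log2 scale in DMSO and by 0.65 (SE 0.14, adjusted p = 0.00587) in lapatinib. The difference between the 2 lapatinib responses was -0.15 on the log2 scale, with a 95% interval of -0.57 to 0.27 (adjusted p = 0.760). All intervals here are normal approximations from the SE. With so few samples they are narrower than the edgeR test would give.

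MUC15, a small membrane-bound mucin, had the lowest control level of the 3 mucins and the largest changes. Its normalized counts were 128, 158 and 127 with NT siRNA and DMSO, and 1046, 1325 and 953 after lapatinib. FOXA1 siRNA cells had 710.4, 706 and 697 without the drug and 2882, 3452 and 2986 with it. Each treatment alone lifted all 3 samples above the control range, and the samples with both were above all others. Lapatinib raised MUC15 by 3.04 (SE 0.15, 8.24-fold, adjusted p = 3.27e-06) with NT siRNA and by 2.16 (SE 0.07, 4.46-fold, adjusted p = 1.49e-06) with FOXA1 siRNA, as log2 fold changes. FOXA1 siRNA raised it by 2.36 (SE 0.10, 5.14-fold, adjusted p = 6.45e-06) in DMSO and by 1.47 (SE 0.12, 2.77-fold, adjusted p = 5.89e-05) in lapatinib. The lapatinib response was smaller with FOXA1 siRNA by a log2 difference of -0.87 (SE 0.17, adjusted p = 0.0120 for the interaction). Set against NT siRNA with DMSO, FOXA1 siRNA with lapatinib gave a log2 fold change of 4.53 (SE 0.11, 23.1-fold, adjusted p = 2.73e-07). MUC15 (gene ID 143662, chr11:26559032-26572263, minus strand) lies within ANO3 on the opposite strand, and the use of strand in counting is not given in the sources used here. ANO3 had group means of 0.97, 8.16, 4.51 and 20.9 normalized counts in the order of groups above, with at most 23 counts in a sample, so its listed level moved in the same order as that of MUC15. The part of ANO3 in the MUC15 counts was not tested.

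MUC20, a membrane mucin (gene ID 200958, chr3:195720978-195733551, plus strand), also rose with lapatinib, but its replicates differed widely. The normalized counts were 239, 525 and 219 with NT siRNA and DMSO, 918, 2194 and 878 with NT siRNA and lapatinib, 412, 712 and 413 with FOXA1 siRNA and DMSO, and 1395, 2452 and 1315 with FOXA1 siRNA and lapatinib. Replicate 2 was the high sample in all 4 groups, and within each siRNA the drug groups did not overlap. The lapatinib response was 2.06 (SE 0.44, 4.17-fold, adjusted p = 0.00390) with NT siRNA and 1.76 (SE 0.29, 3.39-fold, adjusted p = 0.000980) with FOXA1 siRNA, as log2 fold changes. The FOXA1 siRNA groups overlapped the NT siRNA groups, with log2 fold changes of 0.66 (SE 0.36, adjusted p = 0.174) in DMSO and 0.35 (SE 0.38, adjusted p = 0.479) in lapatinib. Blocking on the replicate number gave 0.69 (adjusted p = 0.000114) and 0.41 (adjusted p = 0.000758), and without replicate 2 of every group they were 0.85 (adjusted p = 4.29e-05) and 0.58 (adjusted p = 0.000192). Leaving out only the NT siRNA and DMSO replicate 2 gave 1.17 (adjusted p = 0.00617) in DMSO, and leaving out only the NT siRNA and lapatinib replicate 2 gave 0.92 (adjusted p = 0.0203) in lapatinib. Leaving out the FOXA1 siRNA replicate 2 instead lowered them to 0.34 in DMSO and 0.0023 in lapatinib, and neither passed. MUC20 has near-identical copies in the genome, so the origin of its reads is uncertain. Its expected counts were whole numbers in every sample, while those of MUC1 and GALNT7 were fractional. The sharing of reads between genes was not tested.

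**Figure D2:**
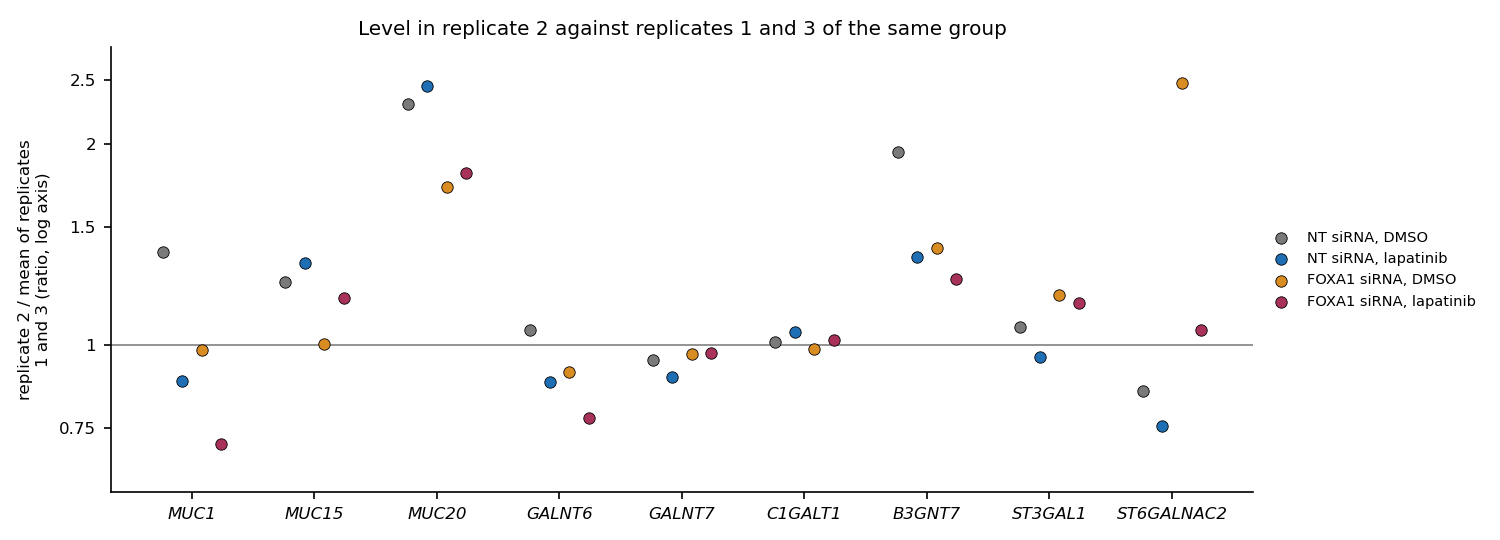
Normalized count of replicate 2 divided by the mean of replicates 1 and 3 in the same group (log axis), for each gene and group. MUC20 lies between 1.73 and 2.44 and B3GNT7 between 1.26 and 1.95 in all 4 groups, while C1GALT1 lies between 0.985 and 1.05.

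Among all genes with a mean normalized count of at least 100, the ratio of MUC20 was exceeded by 0.159%, 0.0559%, 0.381% and 0.233% in the 4 groups. B3GNT7 was at 1.95 with NT siRNA and DMSO, exceeded by 0.327% of genes, at 1.354 with NT siRNA and lapatinib, exceeded by 4.61%, and at 1.26 with FOXA1 siRNA and lapatinib, exceeded by 5.74%. Its mean was under 100 with FOXA1 siRNA and DMSO. MUC1 showed no such side, at 1.38, 0.883, 0.980 and 0.710.

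Of the members that start the O-glycan, GALNT6, a GalNAc transferase often raised in breast carcinoma (gene ID 11226, chr12:51351252-51391673, minus strand), had normalized counts of 5076, 5535 and 5458 with NT siRNA and DMSO and of 4127, 3699 and 4277 in lapatinib. FOXA1 siRNA cells had 7242, 6734 and 7573 in DMSO and 6549, 5194 and 6843 in lapatinib. It was therefore the only member that fell with lapatinib at NT siRNA, by a log2 fold change of -0.38 (SE 0.07, adjusted p = 0.00139). FOXA1 siRNA raised it by 0.43 (SE 0.06, adjusted p = 0.000621) in DMSO and by 0.60 (SE 0.11, adjusted p = 0.00216) in lapatinib. Its lapatinib response with FOXA1 siRNA, -0.20 (SE 0.10, adjusted p = 0.120), came from overlapping groups and passed only with the replicate block (-0.21, adjusted p = 0.00352) and without replicate 2 (-0.13, adjusted p = 0.0295). With both treatments against neither, GALNT6 had 0.24 (SE 0.10, adjusted p = 0.0571), and passed by DESeq2 (0.23, adjusted p = 0.0449), with the replicate block (0.23, adjusted p = 0.0485), without replicate 2 of every group (0.36, adjusted p = 0.000190) and without FOXA1 siRNA and lapatinib replicate 2 alone (0.36, adjusted p = 0.000936). GALNT6 overlaps SLC4A8 on the opposite strand, which had group means of 511, 392, 334 and 287 normalized counts in the order of groups above. The part of SLC4A8 in the GALNT6 counts was not tested.

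GALNT7, which acts preferentially on peptides that already carry GalNAc (gene ID 51809, chr4:173168811-173323967, plus strand), rose stepwise. Its normalized counts were 4651, 4608 and 5076 with NT siRNA and DMSO, 5430.5, 5089.5 and 5951 with NT siRNA and lapatinib, 6174, 6137 and 6513 with FOXA1 siRNA and DMSO, and 8182, 7965 and 8219 with both. None of these groups overlapped. Lapatinib raised it by 0.23 (SE 0.07, adjusted p = 0.0176) with NT siRNA and by 0.39 (SE 0.04, adjusted p = 0.000104) with FOXA1 siRNA, and FOXA1 siRNA raised it by 0.40 (SE 0.05, adjusted p = 0.000567) in DMSO and 0.55 (SE 0.06, adjusted p = 0.000206) in lapatinib, as log2 fold changes. The smallest of these, the response with NT siRNA, did not pass in 3 of the fits that left out 1 sample (adjusted p = 0.0645 without NT siRNA and DMSO replicate 1, 0.0698 without its replicate 2, and 0.0619 without NT siRNA and lapatinib replicate 3).

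C1GALT1, the core 1 synthase (gene ID 56913, chr7:7157377-7248616, plus strand), was tight between replicates and answered to the siRNA more than to the drug. The normalized counts were 1446, 1462 and 1445 with NT siRNA and DMSO and 1538, 1540.01 and 1406 after lapatinib, and these groups overlapped. FOXA1 siRNA cells had 1951, 1948 and 2006 without the drug and 2182, 2212 and 2165 with it, with no overlap. FOXA1 siRNA raised C1GALT1 by 0.45 (SE 0.05, 1.36-fold, adjusted p = 0.000196) in DMSO and by 0.53 (SE 0.06, 1.45-fold, adjusted p = 0.000162) in lapatinib. The lapatinib response was 0.08 (95% interval -0.04 to 0.19, adjusted p = 0.297) with NT siRNA and 0.17 (SE 0.04, adjusted p = 0.0105) with FOXA1 siRNA, and the difference of these responses, 0.10 (95% interval -0.02 to 0.23), did not pass (adjusted p = 0.394). C1GALT1C1, the chaperone that C1GALT1 needs for activity, had group means of 557, 806, 801 and 936 normalized counts. It rose with lapatinib at NT siRNA by 0.56 (SE 0.10, adjusted p = 0.00145) and with FOXA1 siRNA in DMSO by 0.53 (SE 0.08, adjusted p = 0.00129) on the log2 scale. In lapatinib the FOXA1 siRNA effect on C1GALT1C1 was 0.20 (SE 0.09, adjusted p = 0.114, and 0.00639 with the replicate block).

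**Figure D3:**
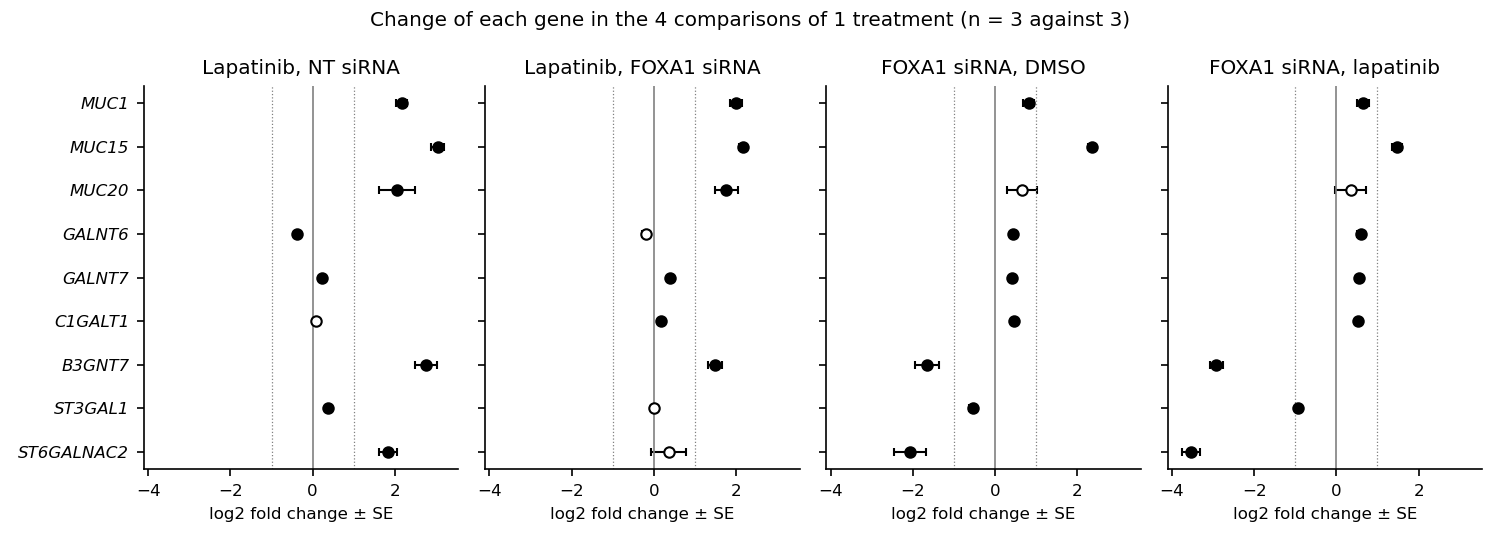
Log2 fold change with SE of the 9 genes in the 4 comparisons of 1 treatment, 3 samples against 3; filled points had an adjusted p under 0.05, and dotted lines mark 2-fold. The 3 genes at the bottom, which extend or end the chain, lie left of 0 in both siRNA panels, and the mucins lie right of 0 in all 4 panels, with MUC20 open in the siRNA panels.

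The 3 members of chain extension and sialylation, B3GNT7, ST6GALNAC2 and ST3GAL1, fell with FOXA1 siRNA. B3GNT7, which lengthens poly-N-acetyllactosamine chains (gene ID 93010, chr2:231395710-231401164, plus strand), had normalized counts of 232, 445 and 226 with NT siRNA and DMSO and 1849.7, 2398 and 1694 in lapatinib. FOXA1 siRNA cells had 80.3, 117 and 87.0 in DMSO and 229, 306 and 258 in lapatinib. The samples with both treatments thus overlapped the control range, while the NT siRNA cells in lapatinib stood above all others. Lapatinib raised B3GNT7 by 2.75 (SE 0.26, 6.75-fold, adjusted p = 4.43e-05) with NT siRNA and by 1.49 (SE 0.17, 2.82-fold, adjusted p = 0.000151) with FOXA1 siRNA. FOXA1 siRNA lowered it, with log2 fold changes of -1.65 (SE 0.29, adjusted p = 0.00289) in DMSO and -2.92 (SE 0.16, 7.56-fold lower, adjusted p = 8.97e-06) in lapatinib. The difference between its lapatinib responses, -1.25 (SE 0.36, 95% interval -1.96 to -0.54), had an adjusted p of 0.0568 and passed with the replicate block (-1.27, adjusted p = 0.000462), with DESeq2 (adjusted p = 0.00418), without replicate 2 of every group (-1.41, adjusted p = 0.000283) and without NT siRNA and DMSO replicate 2 alone (-1.63, adjusted p = 0.00356). FOXA1 siRNA with lapatinib against NT siRNA with DMSO gave -0.15 (95% interval -0.66 to 0.36, adjusted p = 0.626), a value that changed sign to 0.22 (adjusted p = 0.191) without NT siRNA and DMSO replicate 2.

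ST6GALNAC2 (gene ID 10610, chr17:76565377-76585860, minus strand) had few counts. Its normalized counts were 37.3, 39.1 and 54.5 with NT siRNA and DMSO, 148, 125 and 182 with NT siRNA and lapatinib, 5.02, 16.8 and 8.60 with FOXA1 siRNA and DMSO, and 12.4, 13.5 and 13.3 with FOXA1 siRNA and lapatinib. Every FOXA1 siRNA sample was below every NT siRNA sample, and 2 samples held fewer than 10 counts. Lapatinib raised it by 1.82 (SE 0.22, 3.54-fold, adjusted p = 0.000147) with NT siRNA, and FOXA1 siRNA lowered it, by log2 fold changes of -2.07 (SE 0.39, 4.20-fold lower, adjusted p = 0.00373) in DMSO (-2.72 without replicate 2 of every group) and -3.54 (SE 0.22, 11.6-fold lower, adjusted p = 1.30e-05) in lapatinib. With FOXA1 siRNA the lapatinib response was 0.36, with a 95% interval of -0.47 to 1.19 (adjusted p = 0.490), so the interval held both no change and a 2-fold rise. The difference between the responses was -1.45 (SE 0.47, adjusted p = 0.0889), with 0.0391 under the replicate block, 0.0434 by DESeq2 and 0.0466 (-1.76) without FOXA1 siRNA and DMSO replicate 1. It was -0.95 (adjusted p = 0.276) without replicate 2 of every group and -0.88, again not passing, without FOXA1 siRNA and DMSO replicate 2 alone. ST6GALNAC2 lies within the non-coding gene SNHG16 on the opposite strand, which is not analysed here.

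ST3GAL1, the sialyltransferase of core 1 (gene ID 6482, chr8:133454848-133571887, minus strand), was the most abundant of these 3 enzymes per length in all groups. Normalized counts were 3506, 3877 and 3793 with NT siRNA and DMSO, 4778, 4598 and 4813 with NT siRNA and lapatinib, 2329, 2829 and 2429 with FOXA1 siRNA and DMSO, and 2425, 2767 and 2361 with FOXA1 siRNA and lapatinib. The NT siRNA groups did not overlap, and the FOXA1 siRNA groups overlapped each other below both. Lapatinib raised ST3GAL1 by 0.38 (SE 0.05, 1.30-fold, adjusted p = 0.000451) with NT siRNA, while with FOXA1 siRNA the log2 fold change was 0.01 (95% interval -0.16 to 0.18, adjusted p = 0.932). FOXA1 siRNA lowered it by log2 fold changes of -0.55 (SE 0.08, adjusted p = 0.00109) in DMSO and -0.93 (SE 0.07, 1.90-fold lower, adjusted p = 2.40e-05) in lapatinib. The difference between the lapatinib responses was -0.36 (SE 0.11, adjusted p = 0.0647), and its adjusted p was 0.00765 with the replicate block, 0.0227 by DESeq2, 0.00367 without replicate 2 of every group and 0.0325 (-0.43) without FOXA1 siRNA and lapatinib replicate 2 alone.

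Counted over the 9 members, 7 rose and 1 fell with lapatinib at NT siRNA. Of all genes tested in that comparison, 59.7% passed, 30.5% as higher and 29.2% as lower, so most genes moved and the count that passed has to be read against that. A rise of at least 2-fold was seen in 5 members and a fall of that size in 0, against 6.64% and 7.13% of all genes. The members were chosen with earlier results of these data known. The counts of members here and below therefore do not test for an excess over all genes. With FOXA1 siRNA, lapatinib raised 6 members and lowered 0 by edgeR (0 also at an unadjusted p under 0.05 and by DESeq2), while GALNT6 passed as lower under the replicate block. The background there was 58.2% (29.0% higher and 29.1% lower), and 4 members rose at least 2-fold and 0 fell as far, against 4.93% and 5.12%.

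FOXA1 siRNA raised MUC1, MUC15, GALNT6, GALNT7 and C1GALT1 and lowered B3GNT7, ST3GAL1 and ST6GALNAC2, 5 up and 3 down, in DMSO and in lapatinib alike. With the replicate block MUC20 passed as higher as well, by 0.69 in DMSO and 0.41 in lapatinib on the log2 scale. In DMSO 43.2% of all genes passed (21.9% higher and 21.3% lower), and in lapatinib 44.9% (22.7% higher and 22.2% lower). At least 2-fold, 1 member (MUC15) rose and 2 (B3GNT7 and ST6GALNAC2) fell in each, against 4.06% higher and 2.77% lower of all genes in DMSO and 4.51% and 3.9% in lapatinib. Each of these comparisons shares a group with another, so they are not independent. With both treatments against neither, 5 members rose and 2 fell (66.4% of all genes passed, 33.9% higher and 32.5% lower), 3 of them rising and 1 falling at least 2-fold (9.96% and 8.69%). The log2 fold changes of the combined treatment that passed and are not given above were 2.83 for MUC1 (SE 0.18, 7.11-fold, adjusted p = 4.37e-06), 2.43 for MUC20 (SE 0.36, 5.38-fold, adjusted p = 0.000408), 0.80 for GALNT7 (SE 0.05, 1.74-fold), 0.62 for C1GALT1 (SE 0.05), -0.53 for ST3GAL1 (SE 0.07) and -1.70 for ST6GALNAC2 (SE 0.26, 3.25-fold lower). ST6GALNAC2 was thus below its control with both treatments, although lapatinib at NT siRNA had raised it. The interaction passed for 1 member, MUC15, against 7.19% of genes, and for 5 members (MUC15, GALNT7, ST6GALNAC2, B3GNT7 and ST3GAL1) with the replicate block, against 20.4% of genes.

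The position of each member within its family was read as its share of the family's summed TPM. MUC1 held 32.99% ± 2.6 (SD, n = 3) of the summed TPM of 16 mucins with NT siRNA and DMSO and 55.3% ± 3.8 in NT siRNA cells given lapatinib. FOXA1 siRNA cells had shares of 36.7% ± 1.4 in DMSO and 58.0% ± 5.3 in lapatinib. CD164, a widely expressed sialomucin, led the mucins in both DMSO groups and MUC1 in both lapatinib groups. The family's sum went from 363 ± 48 to 933 ± 33 TPM with lapatinib at NT siRNA and, with FOXA1 siRNA, from 574 ± 27 to 1413 ± 159 TPM. The share of MUC1 did not overlap between the drug groups at either siRNA (exact two-sided permutation test, p = 0.1, the smallest that 3 against 3 samples can give), whereas it overlapped between the siRNA groups of each drug (exact p = 0.2 in DMSO and 0.5 in lapatinib).

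Of the members' shares, that of B3GNT7 in the B3GNT family moved by the most percentage points in the lapatinib response with NT siRNA and in the siRNA effect in lapatinib, by 26.9 and -31.0. It held 9.32% ± 2.3 of the summed TPM of 8 genes with NT siRNA and DMSO and 36.2% ± 3.6 with NT siRNA and lapatinib, next to B3GNT2 at 37.7%. With FOXA1 siRNA it held 2.54% ± 0.42 in DMSO and 5.15% ± 0.36 in lapatinib. In those groups B3GNT2 and B3GNT3 together made up nearly all of the sum, B3GNT3 at 46.1% and 50.9%. The 4 groups did not overlap, and each of the 4 comparisons had an exact permutation p of 0.1.

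Among 20 GALNT genes, GALNT6 held 15.0%, 11.5%, 19.1% and 15.98% in the order of groups above, and GALNT7 held 13.9%, 16.1%, 17.3% and 22.0%. GALNT10 led this family in both NT siRNA groups, GALNT6 with FOXA1 siRNA and DMSO, and GALNT7 with FOXA1 siRNA and lapatinib. The GALNT sum stayed between 503 and 545 TPM. ST3GAL1 was second in its family to ST3GAL4 in every group, with 10.9%, 12.7%, 8.98% and 7.56%. ST6GALNAC2 held 1.30%, 4.70%, 0.253% and 0.355% of its family, where ST6GALNAC4 led with 60.1% to 87.4%.

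**Figure D4:**
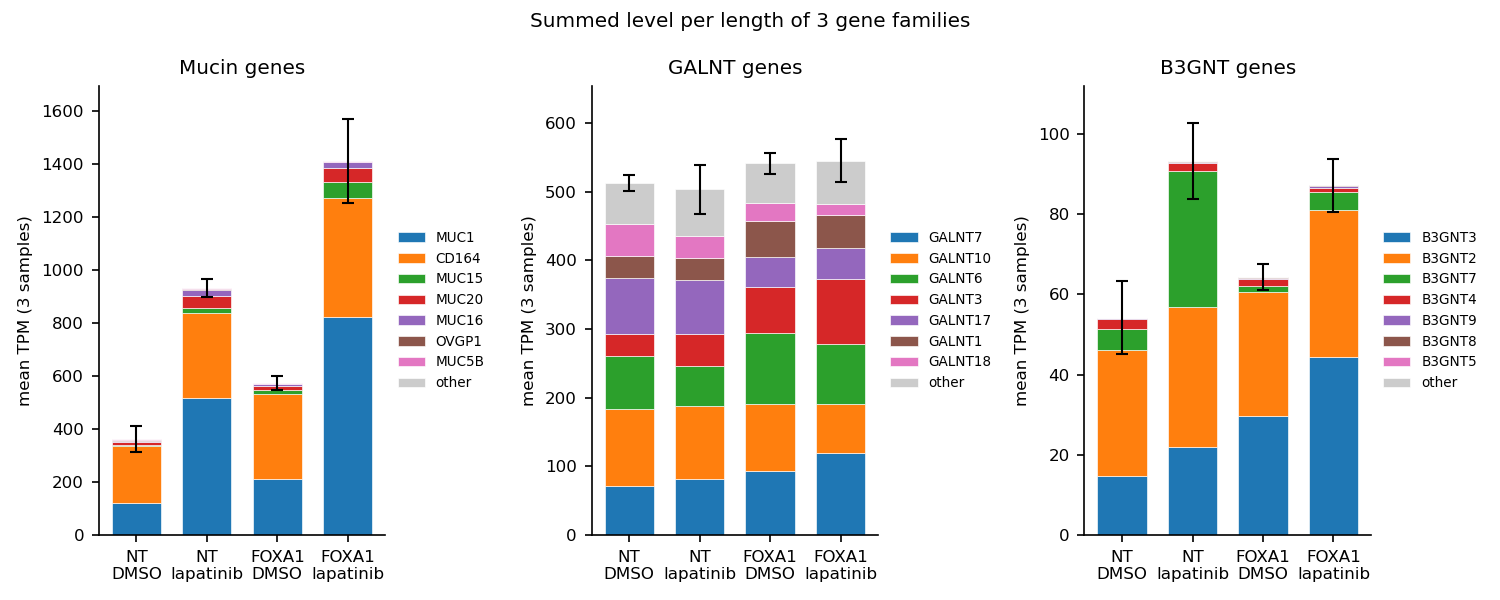
Stacked mean TPM of the mucin, GALNT and B3GNT genes in the 4 groups (the 7 highest genes named, the rest as other); error bars are the SD of the family's sum over 3 samples. The MUC1 band grows with lapatinib at either siRNA, and the B3GNT7 band is wide with NT siRNA and lapatinib at 34.0 TPM and narrow with FOXA1 siRNA and lapatinib at 4.51 TPM.

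The rest of the pathway was read from lists of 89 other genes, of which 85 were in the tables. A listed gene was tested if any sample reached 10 counts, so genes of few counts could enter through the group where they were high, and the counts below include these. With lapatinib at NT siRNA, 60 could be tested, 21 rose and 9 fell, with a median log2 fold change of 0.07 beside 0.03 over all genes. Of all genes tested there, 30.5% rose and 29.2% fell. Of the other mucins, MUC16 and CD164 (0.62, named after its value was seen) rose. MUC4 and MUC21 also passed, but entered through the lapatinib samples, at 15.4 and 10.2 normalized counts against 4.60 and 1.66 in DMSO. MUC16, the very large membrane mucin known as CA125, rose from 821 ± 93 to 5279 ± 972 normalized counts (log2 fold change 2.72, SE 0.14, adjusted p = 3.71e-06) at NT siRNA. In FOXA1 siRNA cells it went from 1217 ± 232 to 4886 ± 1306 (2.02, SE 0.21, adjusted p = 8.68e-05). ST6GALNAC6, which acts mainly on glycolipids, rose by 1.13 and 0.89 in the same comparisons. FUT4, a fucosyltransferase of the Lewis x antigen, fell in both, with log2 fold changes of -1.21 and -0.97, and B4GALT2, a galactosyltransferase, fell at NT siRNA, with -1.15. GNE, the enzyme that starts sialic acid synthesis, rose at NT siRNA by 0.66, and GFUS, which makes GDP-fucose, fell, with log2 fold changes of -0.75 and, in FOXA1 siRNA cells, -0.70.

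FOXA1 siRNA moved other enzymes of the same steps. Of 58 list genes tested in DMSO, 17 rose and 13 fell, and of 60 in lapatinib, 16 rose and 15 fell, with medians of -0.02 and -0.08 beside -0.01 over all genes in both. Over all genes tested, 21.9% rose and 21.3% fell in DMSO, and 22.7% rose and 22.2% fell in lapatinib. GALNT3 rose by 1.04 in DMSO and 0.99 in lapatinib, and B3GNT3, an extension enzyme of core 1, by 1.02 and 1.01, as log2 fold changes. GNE rose by 1.67 in DMSO and 0.65 in lapatinib. GCNT1, the core 2 branching enzyme, fell, with log2 fold changes of -1.14 in DMSO and -1.79 in lapatinib, as did the oviductal glycoprotein OVGP1, with -1.79 and -1.31. MUC5B, a secreted gel-forming mucin, fell in DMSO (-1.14), and FUT3, the Lewis fucosyltransferase, fell in lapatinib (-1.12). Of 7 other mucins tested in DMSO, with OVGP1 among them, 4 rose and 2 fell. In lapatinib 8 were tested, 3 rose and 1 fell. CD164 rose by 0.58 in DMSO and 0.47 in lapatinib, and MUC16 by 0.57 in DMSO. MUC6 (1.76 and 2.18) rose in both, from group means of only 11.7 and 18.1 normalized counts with NT siRNA. MUC13 (1.90 and 2.95) also passed in both, but entered through the FOXA1 siRNA samples. Its group means there were 14.9 and 17.5 normalized counts, against 3.91 and 2.19 with NT siRNA. Of the 2 other ST6GALNAC genes tested in lapatinib, ST6GALNAC4 rose by 0.49 and ST6GALNAC6 fell (-0.40). Of the 5 other ST3GAL genes 1 fell, ST3GAL5, the GM3 synthase, from 12.7 to 0.67 normalized counts, and 4 did not pass. CD164, MUC6, MUC13, ST6GALNAC4 and ST3GAL5, and MUC16 in DMSO, are named after their values were seen.

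With lapatinib and FOXA1 siRNA, 58 list genes were tested, 17 rose and 15 fell, beside 29.0% and 29.1% of all genes. MUC5B rose there by 0.86 and GALNT18 fell (-0.78), on the log2 scale. With both treatments against neither, 62 were tested, 25 rose and 20 fell, beside 33.9% and 32.5% of all genes. MUC16 was higher by 2.61, B3GNT3 by 1.64 and GALNT3 by 1.59, and FUT4, GALNT18 and OVGP1 were lower, with log2 fold changes of -1.72, -1.59 and -1.37. CD164 was higher by 1.10. MUC4, MUC13 and MUC21 passed as well, at 1.66 to 4.60 normalized counts without and 17.5 to 26.3 with both treatments, and thus entered the test through the treated samples. MUC6 was higher by 2.84, at 11.7 normalized counts without and 83.2 with both treatments.

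**Figure D5:**
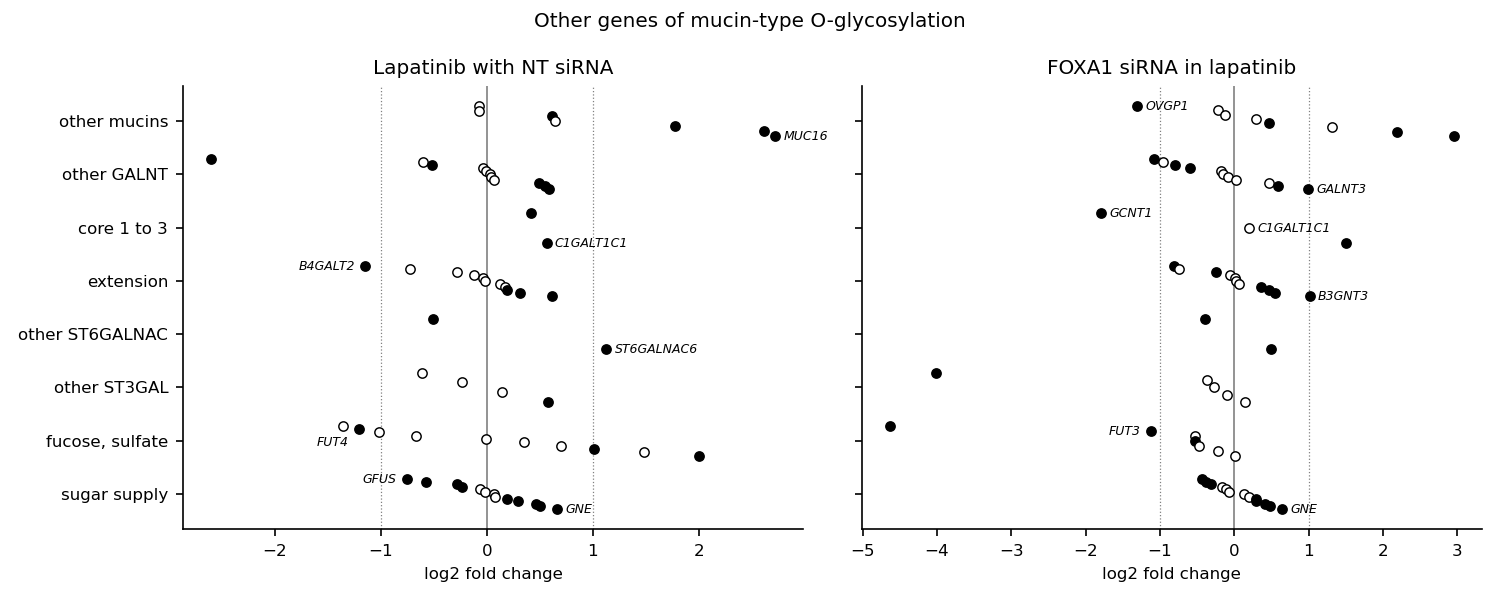
Log2 fold changes of the other listed genes by step of O-glycosylation, for lapatinib with NT siRNA (left) and FOXA1 siRNA in lapatinib (right); filled points had an adjusted p under 0.05, dotted lines mark 2-fold, and the genes picked by the naming rule are labelled. Members such as B3GNT7 are not plotted, and the 2 points left of -4 on the right panel are ST3GAL5 and CHST1, both of few counts.

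Levels of the members were also compared with one another on the log2 scale across the 12 samples. Pearson's r was 0.93 between MUC1 and MUC15, 0.87 between MUC1 and MUC20, 0.98 between ST6GALNAC2 and ST3GAL1, and 0.90 between ST6GALNAC2 and B3GNT7. It was also 0.90 between GALNT7 and C1GALT1 and 0.85 between MUC15 and GALNT7. GALNT6 ran against the sialyltransferase and extension members, with r of -0.91 to ST6GALNAC2, -0.91 to ST3GAL1 and -0.93 to B3GNT7. These samples fall into 4 treatment groups and share libraries, so the values describe the group pattern. Of 10813 genes, those most like MUC1 were CTBS (r = 0.995), SPG11 (0.994) and C11orf52 (0.994), those most like MUC15 were SLC16A4 (0.996), ITSN2 (0.994) and SAMD12 (0.992), and those most like B3GNT7 were APOD, LOC651250 (both 0.985) and EHMT1 (0.982). With lapatinib, APOD went from 142 to 299.7 normalized counts in NT siRNA cells and from 91.8 to 149 after FOXA1 depletion. Pearson's r does not reflect the size of a change. Group means ranged from 257 to 1385 normalized counts for SLC16A4, from 1779 to 2696 for ITSN2 and from 4667 to 11938 for SAMD12. They ranged from 3077 to 4639 for LOC651250 and from 2299 to 3420.5 for EHMT1, so most of these genes moved far less than MUC15 or B3GNT7.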

How the data were processed

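RNAseq was read from 12 polyA libraries of SKBR-3 cells. The authors deposited, per gene and library, RSEM expected counts, TPM and a mean transcript length. The methods name STAR and Salmon on hg38, whereas the deposited columns are those of RSEM. Labels name a stranded and an unstranded kit. Expected counts were rounded and tested in R 4.3.3 with edgeR 4.0.16 (TMM, glmQLFit, glmQLFTest, a gene entering if any sample reached 10 counts). Each comparison of 2 groups used its own 6 samples, and the interaction all 12. A call needed an adjusted p under 0.05. Positions and promoters come from RefSeq, GRCh38.p14, and overlaps from GENCODE. Family shares used the deposited TPM. Python 3.11.15, pandas 2.3.3, numpy 2.4.6, scipy 1.17.1 and matplotlib 3.10.9 made tables and plots. Fits were tested on simulated data. Intervals and limits cover these samples only, and depth, 25749578 to 32271850 expected counts, limits genes of few counts.

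Members and lists were chosen with earlier results of these data known. Named genes are the 9 members, FOXA1, C1GALT1C1, up to 3 listed genes per direction with the largest change among those called at a mean of at least 100 normalized counts, and the 3 genes most like each of 3 members. Samples that carry the same number in different groups moved together around their group means (18 pairs, r 0.244 to 0.627, mean 0.393, over 12170 genes). The numbers, taken from the labels, thus pair the samples. Other pairs had a mean of -0.185. Centring on means of 3 samples ties this value to that of the same-number pairs, so it is no separate comparison. The main fits and the permutation tests did not use the pairing. Alternatives were RLE and upper-quartile scaling, 2 other filters, unrounded counts, all 12 samples in one model, DESeq2 1.42.0, the replicate block, each sample left out, and, chosen after seeing the data, replicate 2 of every group left out.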

Additional observations from a re-analysis of the deposited data

Results flagged for a closer look

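The lapatinib response differed between FOXA1 and NT siRNA, by the interaction term in the quasi-likelihood test of edgeR, for MUC15 and for listed genes that are no members. Of 64 such listed genes tested, the difference passed above 0 for 2 and below 0 for 4. Of all genes tested, 7.19% passed in either direction, so these calls do not mark the pathway out. For MUC15 the rise was smaller with FOXA1 siRNA, by -0.87 on the log2 scale (adjusted p = 0.0120), and the level was above control in all 9 treated samples.

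The other differences, each given as the log2 response with FOXA1 siRNA minus that with NT siRNA, took several forms. GNE differed by -1.001 (adjusted p = 0.00368), since it rose by 0.66 with NT siRNA and fell with FOXA1 siRNA (-0.35, adjusted p = 0.00238). SLC35A1, the Golgi transporter of CMP-sialic acid, differed by -0.38 (adjusted p = 0.0444), with responses of 0.47 and 0.07. GALNT10 differed by -0.37 (adjusted p = 0.0285), with responses of -0.04 and -0.42.

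MUC5B differed by 0.94 (adjusted p = 0.0288), with responses of -0.07 and 0.86. B4GALT2 differed by 0.49 (adjusted p = 0.00821), since it fell less with FOXA1 siRNA (-0.67) than with NT siRNA (-1.15). ST3GAL5, a gene of few counts, also passed.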

How the results depend on the processing

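RLE and upper-quartile scaling, either filter, unrounded counts and one model of all 12 samples changed no call of a member, except that ST6GALNAC2 could not be tested with at least 10 counts in every sample where FOXA1 siRNA and DMSO samples entered. The interaction passed for 1 member, for 4 with DESeq2, for 5 with the replicate block, and for 1 to 3 with samples left out (3 without replicate 2 of every group; 2 without NT siRNA and DMSO replicate 2, FOXA1 siRNA and DMSO replicate 1, or FOXA1 siRNA and lapatinib replicate 2). For the interaction, 7.19% of all genes passed in the main fit and 20.4% with the replicate block. That share was not counted for DESeq2 or with samples left out. The pairing by block also gave calls for MUC20 in both siRNA comparisons, for GALNT6 with lapatinib at FOXA1 siRNA and for GALNT6 with both treatments against neither (0.23, adjusted p = 0.0485, beside 0.24 and 0.0571), and it changed no other call of a member outside the interaction. With single samples or replicate 2 left out, signs changed for 4 values that had not passed: ST3GAL1 with lapatinib at FOXA1 siRNA ranged from -0.0538 to 0.0943 (below 0 in 3 fits), B3GNT7 with both treatments from -0.34 to 0.22 (0.22 and 0.10), and the interaction of MUC1 from -0.31 to 0.0004 and of MUC20 from -0.80 to 0.28 (0.28 and 0.02). The share of MUC20 among the mucins, in percentage points, ranged from -0.53 to 0.71 for FOXA1 siRNA in DMSO, from -1.70 to 1.03 for FOXA1 siRNA in lapatinib and from -0.16 to 1.67 for lapatinib with FOXA1 siRNA. The causes were not tested.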
